A study of Mus musculus with 6 samples.

Results

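The genes described here belong to the protein folding and quality control machinery of the endoplasmic reticulum (ER), in 410.4 mouse breast cancer cells kept with or without neutrophil extracellular traps (NETs). They were chosen by symbol, as a list of ER chaperones, folding enzymes, ER-associated degradation (ERAD) factors and stress sensors. Earlier results of these data were known at that choice, so the share of members that rose may not hold for other ER folding genes. All 37 symbols were among the 55809 gene symbols of the deposited count table. Of the 37 genes, 36 passed the filter on low counts and were among the 13956 genes tested, and Derl3 was not tested. NETs are sticky nets of chromatin with granule enzymes on it, cast out by activated neutrophils. A single cell line was used. Both groups of 3 libraries came from the 410.4 line in DMEM with 0.5% fetal calf serum for 2 days, with no other agent or allele given in the labels. The control group (Veh in the titles) received that medium alone and the other group received medium in which NETs had been isolated. Whatever else the neutrophils released into the medium cannot be told apart from the NETs, and the labels do not say that replicates were separate cultures, so the spread behind each p-value may be technical.

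Proteins bound for the membrane or for secretion enter the ER through the Sec61 channel, where chaperones fold them, oxidoreductases form their disulphide bonds and lectins read their sugar chains. Chains that fail to fold are drawn back to the cytosol and degraded, which is ERAD. When unfolded proteins build up, the sensors IRE1 (Ern1), ATF6 and PERK (Eif2ak3) start the unfolded protein response: IRE1 splices the Xbp1 message, ATF6 is cut free as a transcription factor, and both XBP1 and ATF6 raise transcription of chaperone and ERAD genes. PERK instead slows translation and acts through ATF4. Tumour cells often rely on this response.

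A known mark of such targets is the ER stress element (ERSE), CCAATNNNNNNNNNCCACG, in which NF-Y binds the CCAAT part and ATF6 or XBP1 the CCACG part. It was looked for on both strands of RefSeq promoter windows (build GRCm38.p6) that run from 250 bases before to 50 bases after each start site. Windows of 29 of the 37 members were matched by symbol, all but Manf, Hyou1, Derl1, Sec61a1, Atf6, Erp29, Sil1 and Erlec1. An exact ERSE was found for 10 of the 29 members (34.5%), against 37 of all 27025 genes with a window (0.137%). The element is already known as a mark of genes of this kind, so the higher share among the members is no independent result. The window of Hsp90b1 held 2 of them. The elements are given because 9 of these 10 genes were expressed and all 9 rose with NETs, where 20.2% of all tested genes rose. Of the 19 tested members with a window but no ERSE, 13 rose too. Of 7 tested genes outside the members with an ERSE, 2 rose and 3 fell. Each element is written in its own reading direction with the fixed letters in capitals and the 9 free bases in lower case.
Hspa5: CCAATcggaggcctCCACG
Hsp90b1 (first): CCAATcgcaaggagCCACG
Hsp90b1 (second): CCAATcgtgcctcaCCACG
Calr: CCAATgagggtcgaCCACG
Creld2: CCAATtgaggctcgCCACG
Pdia6: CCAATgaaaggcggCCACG
Dnajc3: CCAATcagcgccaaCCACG
Ero1b: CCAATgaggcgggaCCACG
Syvn1: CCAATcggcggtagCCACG
Canx: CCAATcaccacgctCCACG
Derl3: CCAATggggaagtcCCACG

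The windows of the pair of most abundant members, Hspa5 (chr2:34771840-34772139, plus strand) and Hsp90b1 (chr10:86705395-86705694, minus strand), show where the elements lie. Both are written along the strand of the gene with the fixed letters of the elements in capitals, so that an element on the other strand reads as CGTGG, 9 bases, ATTGG. In Hspa5 the element begins 65 bases before the start site.
Hspa5: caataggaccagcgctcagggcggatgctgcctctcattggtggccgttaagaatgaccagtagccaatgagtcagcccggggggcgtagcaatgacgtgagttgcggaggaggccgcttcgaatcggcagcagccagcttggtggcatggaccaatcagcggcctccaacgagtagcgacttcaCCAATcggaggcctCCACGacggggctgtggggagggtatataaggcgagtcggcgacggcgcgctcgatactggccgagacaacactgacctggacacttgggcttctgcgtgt
Hsp90b1: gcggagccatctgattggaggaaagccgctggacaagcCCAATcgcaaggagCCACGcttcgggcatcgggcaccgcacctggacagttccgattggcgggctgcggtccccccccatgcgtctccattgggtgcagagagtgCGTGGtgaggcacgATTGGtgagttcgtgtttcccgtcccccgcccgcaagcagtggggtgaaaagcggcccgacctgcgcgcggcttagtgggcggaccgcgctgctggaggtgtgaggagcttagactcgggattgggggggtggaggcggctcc

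A shorter variant, ERSE-II (ATTGG, any base, CCACG), was found for 2 of the 29 members, Herpud1 and Dnajb11, and for 0.0444% of all genes. The XBP1-bound UPR element (TGACGTGG) was found for 1 member, Txndc5, in 1 of its 3 windows, and for 0.714% of all genes. Matches of different motifs did not overlap each other in the members' windows. These are matches of letters and not shown to be bound here, and a window without a match says nothing of a factor that binds elsewhere or to a variant.

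With NETs most of the members stood higher in messenger RNA, relative to the other genes of each library. Of the 36 members tested, 26 rose, 3 fell and 7 did not pass at an adjusted p of 0.05, with edgeR's quasi-likelihood test and Benjamini-Hochberg adjustment. Over all 13956 genes tested, 20.2% rose and 18.7% fell, 38.9% in either direction. The members' median log2 fold change was 0.39, and that of all tested genes -0.0039. In these bulk samples, a change in the share of some cells and a change per cell cannot be told apart. The rise reached a log2 fold change of 0.5 at 16 members, where 7.60% of all tested genes rose that far. None of the 3 members that fell did so by that much, as 6.19% of all tested genes did. Hspa5, Txndc5, Manf, Dnajb9 and Calr had the highest fold changes, from 1.79-fold to 2.25-fold, and Sil1, Atf6 and Ppib were the 3 that fell. CPM values (counts scaled to a common library size with TMM factors) of the groups did not overlap at 27 members in the upward and 6 in the downward direction, against 24.4% and 24.5% of all tested genes (49.0% in either direction).

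Added together, the 37 genes took up 0.855% to 0.958% of all counts in the control libraries and 1.26% to 1.34% with NETs. Their summed level went from 8808 ± 618 to 13420 ± 582 CPM (mean ± SD, n = 3), a ratio of 1.52, and without Hspa5 the ratio was 1.38. The ratio was 1.90 for the group of BiP, GRP94 and their co-factors, 1.44 for the lectin chaperones, 1.43 for the oxidoreductases, 1.30 for the translocon, 1.16 for ERAD, 1.04 for the sensors with Xbp1 and 0.857 for the prolyl isomerases. These ratios are descriptions, with no test. Libraries held 31119105 to 64431811 counts.

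**Figure D1:**
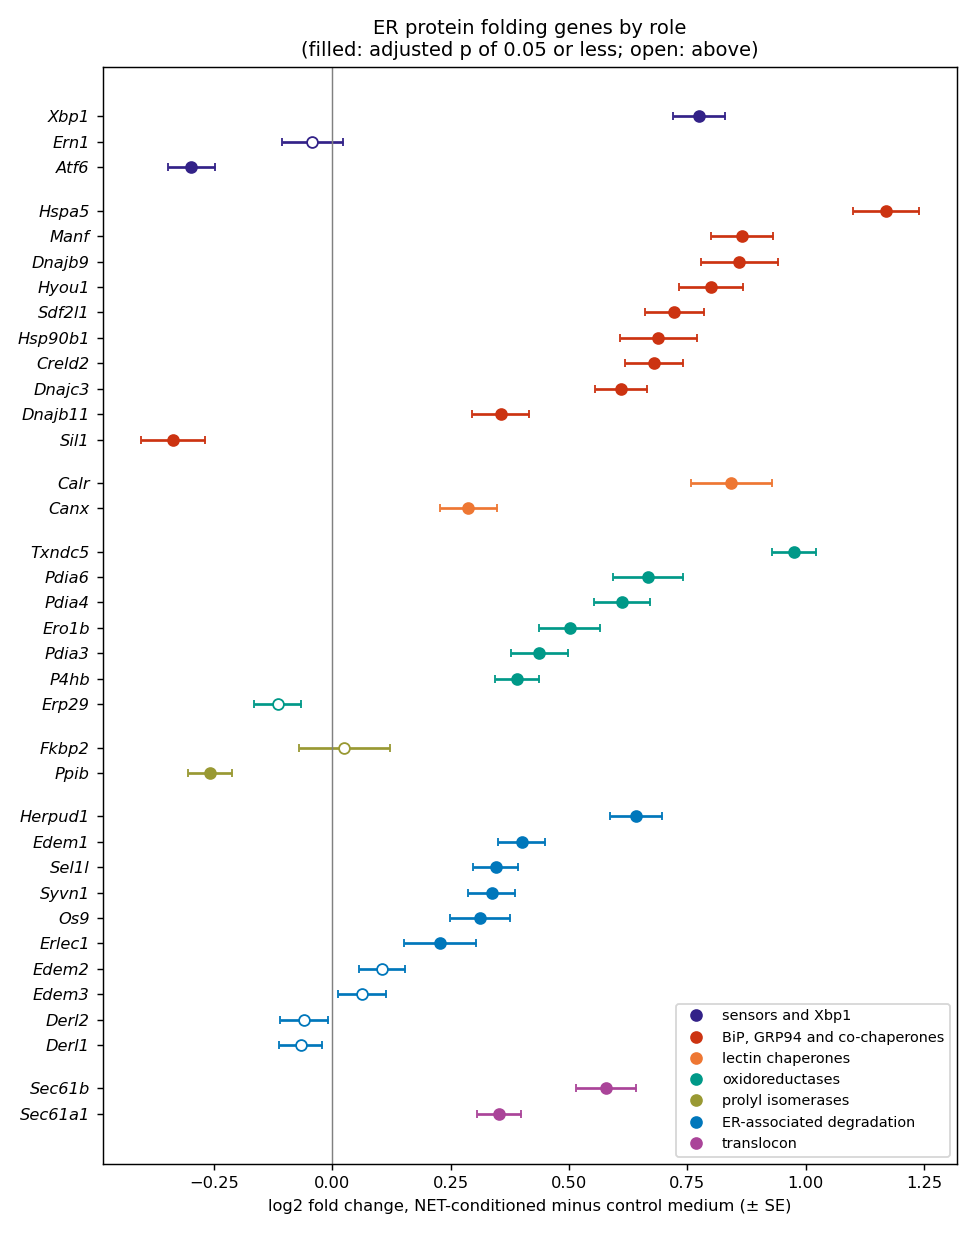
Log2 fold change (NET-conditioned minus control medium, x axis) ± SE of the 36 tested members, grouped by role and coloured by it, with filled points for an adjusted p of 0.05 or less. Most filled points lie to the right of 0, from 0.23 (Erlec1) to 1.17 (Hspa5), and 3 lie to the left (Sil1, Atf6, Ppib).

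Of the sensors and their mediator, Xbp1 rose, Atf6 fell and Ern1 did not pass. Xbp1, the transcription factor whose message IRE1 splices, stood at 69.9, 71.9 and 64.4 CPM in control medium and 119, 121 and 113 CPM with NETs (replicates 1 to 3 in each group, here and below). All 3 libraries with NETs lay above the control libraries, a 1.71-fold rise (log2 fold change 0.78 ± 0.0549, adjusted p = 6.54e-09). Counts per gene do not tell the spliced message from the unspliced. Ern1, the gene of IRE1 itself, had 74.1, 66.0 and 63.9 CPM in control medium and 70.0, 62.0 and 66.1 CPM with NETs. The groups overlapped and Ern1 did not pass (log2 fold change -0.04 ± 0.0641, adjusted p = 0.65). Atf6, the gene of the membrane-bound factor, had 188, 178 and 189 CPM in control medium and 145, 149 and 158 CPM with NETs. Every library with NETs was below every control library, and Atf6 fell 1.23-fold (log2 fold change -0.30 ± 0.0493, adjusted p = 0.000127). Eif2ak3, the PERK gene, was no member but rose 1.39-fold, from 47.1 ± 2.77 to 65.4 ± 2.58 CPM (adjusted p = 5.78e-06).

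BiP, the ER's Hsp70 chaperone and the protein that keeps the sensors silent when bound to them, is the product of Hspa5. Its level was 1399, 1308 and 1618 CPM in control medium and 3099, 3333 and 3289 CPM with NETs. The lowest library with NETs held far more than the highest control library, and the gene rose 2.25-fold (log2 fold change 1.17 ± 0.0695, adjusted p = 1.27e-09). On a scale per exon length (RPKM, CPM per kilobase of exon), Hspa5 went from 341 ± 37.7 to 766 ± 29.4. The length used is the deposited exon length of each gene, which may exceed that of the message expressed. RPKM comparisons between genes, here and below, therefore depend on the annotation. It thereby moved from rank 66 to rank 14 among the tested genes ordered by RPKM. Its part of the members' summed RPKM was 14.1% to 15.2% in control libraries and 21.3% to 21.6% with NETs, with no overlap between groups.

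GRP94, the ER's Hsp90 (Hsp90b1), had 1017, 942 and 1201 CPM in control medium and 1565, 1784 and 1743 CPM with NETs. Groups did not overlap although control replicate 3 stood above the other controls, and Hsp90b1 rose 1.61-fold (log2 fold change 0.69 ± 0.0809, adjusted p = 1.7e-05). Hyou1, an Hsp110-type chaperone that swaps nucleotide on BiP, had 257, 244 and 294 CPM in control medium and 433, 492 and 460.3 CPM with NETs. It rose 1.74-fold (log2 fold change 0.80 ± 0.0671, adjusted p = 1.62e-07), again with no overlap. Sil1, the other nucleotide exchange factor of BiP, went the opposite way with 33.5, 32.6 and 30.5 CPM in control medium and 24.1, 27.0 and 25.7 CPM with NETs. All libraries with NETs were below the control libraries, and Sil1 fell 1.26-fold (log2 fold change -0.34 ± 0.0671, adjusted p = 0.000717).

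J-domain co-chaperones hand clients to BiP and trigger its ATPase, and those among the members, Dnajb9, Dnajc3 and Dnajb11, all rose. Dnajb9 (ERdj4), which also restrains IRE1, had 19.3, 19.9 and 22.4 CPM in control medium and 33.1, 40.5 and 38.3 CPM with NETs. The rise was 1.81-fold (log2 fold change 0.86 ± 0.0816, adjusted p = 3.45e-07), with no overlap between groups. Dnajc3 (p58IPK) had 59.7, 57.7 and 64.7 CPM in control medium and 90.6, 93.8 and 93.3 CPM with NETs, a rise of 1.53-fold (log2 fold change 0.61 ± 0.0546, adjusted p = 1.24e-07). The libraries with NETs lay close together, well above the controls. Dnajb11 (ERdj3) rose less, 1.28-fold, from 118 ± 9.52 to 151 ± 8.15 CPM (adjusted p = 0.00016). Outside the members, the ER J-domain genes Dnajc10, Dnajc25 and Sec63 rose (log2 fold changes 0.21, 0.30 and 0.32). Dnajc1, Dnajb12 and Dnajb14 did not pass (0.05, 0.008 and -0.07).

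Small ER-resident or secreted factors of the stress response rose as well. Sdf2l1, which works in a complex with ERdj3 and BiP, had 37.0, 33.4 and 38.9 CPM in control medium and 58.8, 61.8 and 60.2 CPM with NETs. Creld2, a stress-induced protein with disulphide-linked domains, had 47.0, 44.6 and 51.1 CPM in control medium and 74.1, 73.8 and 80.7 CPM with NETs. Each of these genes separated the groups fully, and the rises were 1.65-fold (log2 fold change 0.72 ± 0.0618, adjusted p = 6.9e-08) and 1.60-fold (log2 fold change 0.68 ± 0.0611, adjusted p = 1.27e-07). Manf, the gene of a BiP-binding secreted factor, had 141, 138 and 164 CPM in control medium and 250.3, 284 and 272 CPM with NETs, a rise of 1.82-fold (log2 fold change 0.86 ± 0.0659, adjusted p = 4.74e-08). In the deposited annotation the exons of Manf overlap those of Rbm15b on the same strand and of Dcaf1 on the other, with mean counts per library of 8692 and 6935 beside 9743 for Manf, so the value of Manf is uncertain.

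**Figure D2:**
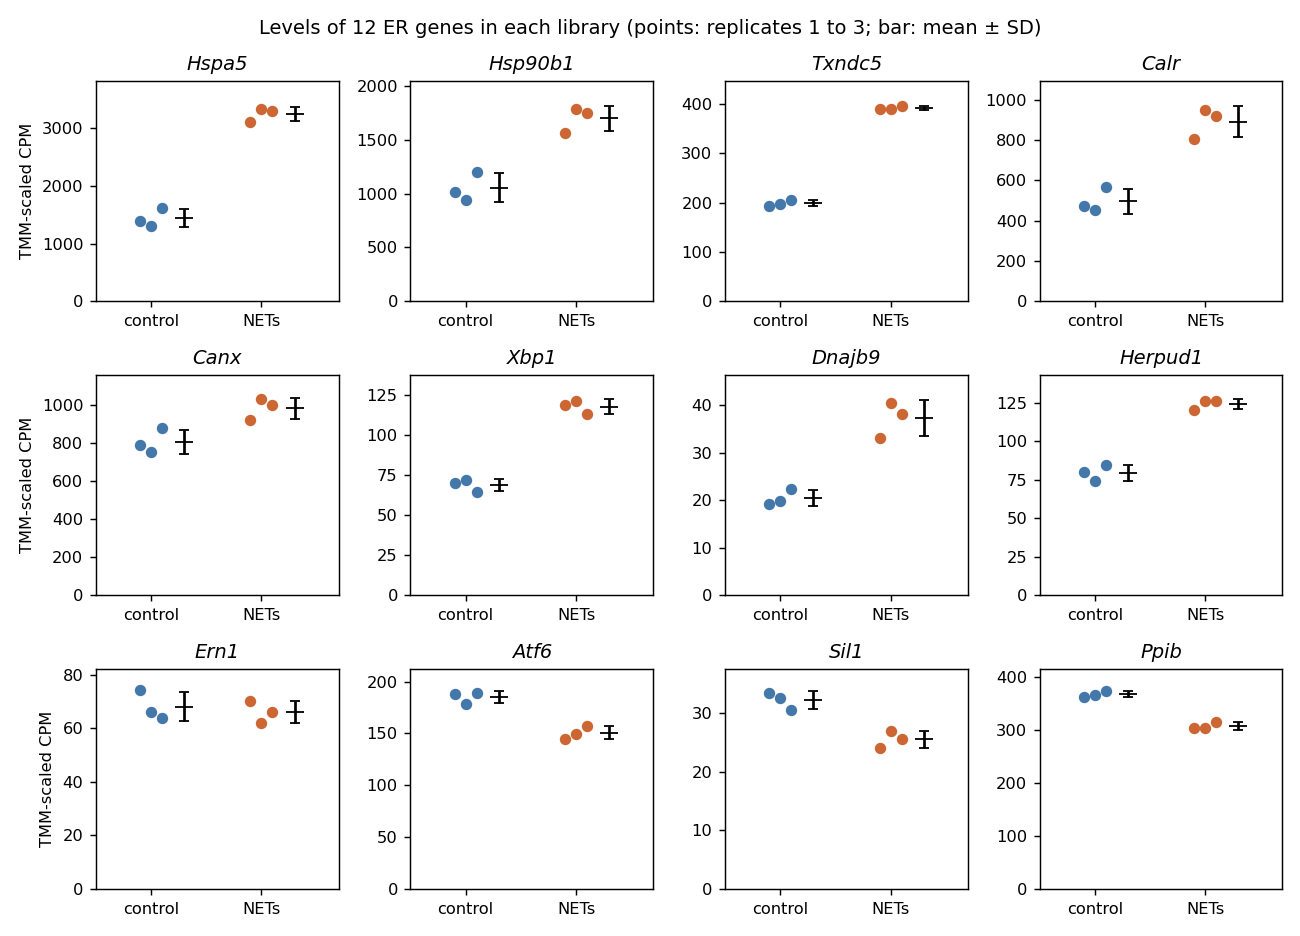
TMM-scaled CPM (y axis, from 0) of 12 members in each of the 3 control and 3 NET libraries (points, replicates 1 to 3 from left to right), with the mean ± SD beside them. Hspa5 lies between 1308 and 1618 CPM in control libraries and between 3099 and 3333 CPM with NETs, Ern1 overlaps between groups, and Atf6, Sil1 and Ppib are lower with NETs.

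The lectin chaperones hold newly made glycoproteins while they fold, and the genes of both the soluble and the membrane-bound one rose. Calreticulin (Calr) had 470.3, 453 and 566 CPM in control medium and 803, 948 and 919 CPM with NETs. No library overlapped, and the rise was 1.79-fold (log2 fold change 0.84 ± 0.0858, adjusted p = 1.09e-05). Calnexin (Canx) had 788, 754 and 878 CPM in control medium and 923, 1030.5 and 999.6 CPM with NETs. It too separated the groups, by a smaller margin between control replicate 3 and NET replicate 1, and rose 1.22-fold (log2 fold change 0.29 ± 0.0606, adjusted p = 0.0012). By RPKM on the deposited exon lengths, the genes were level in control medium. The ratio of Calr to Canx was 0.973, 0.978 and 1.05 there, and 1.42, 1.50 and 1.50 with NETs. The exact two-sided permutation test of this ratio gave p = 0.1, the smallest that 3 against 3 libraries allow (0.12 adjusted over the 6 ratios computed). The change in ratio restates the unequal rises of Calr and Canx.

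Of the other ratios, Hspa5 to Hsp90b1 went from 1.31 ± 0.0199 to 1.82 ± 0.0569 and Hspa5 to Dnajb11 from 9.33 ± 0.312 to 16.4 ± 0.566. Hspa5 to Hyou1 went from 9.29 ± 0.115 to 12.01 ± 0.370. The ratio of Hspa5 to Sil1 moved by the widest factor of the 6, from 36.5 ± 5.70 to 103 ± 2.37 (RPKM ratios, mean ± SD, n = 3). Each of these 4 reached the same smallest exact permutation p of 0.1. Hspa5 had the highest fold change of all members, and Sil1 fell most. These 4 ratios thus restate fold changes given above and are no separate results. Sel1l to Syvn1, the adaptor and the ubiquitin ligase of a single ERAD complex, had ratios of 0.966 ± 0.0321 and 0.970 ± 0.0241 that overlapped between groups (exact permutation p = 0.8).

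Oxidoreductases of the protein disulphide isomerase (PDI) family make and rearrange disulphide bonds. Of the 7 members grouped here, among them the oxidase gene Ero1b, 6 rose, where 20.2% of all tested genes rose. Txndc5 (ERp46) had the smallest adjusted p of all members, with 194, 198 and 206 CPM in control medium and 389.6, 389.5 and 396 CPM with NETs. Its replicates were tight in both groups, and it rose 1.97-fold (log2 fold change 0.98 ± 0.0465, adjusted p = 3.83e-11). Pdia6, which also damps IRE1 signalling, had 322, 304 and 366 CPM in control medium and 477, 571 and 526 CPM with NETs. Pdia4 (ERp72) had 272, 259 and 297 CPM in control medium and 391, 442 and 432 CPM with NETs. In these genes NET replicate 1 was the lowest and NET replicate 2 the highest of the NET libraries, and all 3 stood above the controls, with rises of 1.59-fold (log2 fold change 0.67 ± 0.0741, adjusted p = 8.12e-06) and 1.53-fold (log2 fold change 0.61 ± 0.0593, adjusted p = 3.95e-07).

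The classic PDI gene P4hb rose 1.31-fold, from 537 ± 11.4 to 704 ± 14.4 CPM, and Pdia3 (ERp57), the partner of calreticulin and calnexin, 1.35-fold, from 648 ± 51.0 to 877 ± 49.6 CPM. The adjusted p-values were 3.48e-06 and 2.06e-05. Ero1b, an oxidase that recharges PDI, had 19.1, 19.0 and 18.8 CPM in control medium and 26.6, 26.6 and 27.2 CPM with NETs. It was the lowest of the tested members per exon length, at 2.85 ± 0.0288 RPKM in control medium, and rose 1.42-fold (log2 fold change 0.50 ± 0.0650, adjusted p = 9.77e-06) with no overlap. Its paralog Ero1a, which was no member, fell 1.35-fold, from 139 ± 2.75 to 103 ± 0.147 CPM (adjusted p = 9.82e-07). Erp29, a PDI-like protein without an active site, did not pass (log2 fold change -0.12 ± 0.0499, adjusted p = 0.0779). It was lower in every library with NETs than in every control library, but its exons overlap those of Naa25 on the other strand, and whether reads were counted by strand is not known here.

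Prolyl isomerases speed a slow step of folding. Ppib (cyclophilin B), which also serves collagen folding, stood at 362, 367 and 374 CPM in control medium and 303, 303 and 316 CPM with NETs. All libraries with NETs were below the controls, and Ppib fell 1.20-fold (log2 fold change -0.26 ± 0.0459, adjusted p = 0.000252). Fkbp2 went from 46.4 ± 5.19 to 47.3 ± 6.01 CPM, overlapped between groups and did not pass (adjusted p = 0.867).

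Among the tested ERAD members the changes were smaller than 1.5-fold except at Herpud1. Herpud1 (HERP), a stress-induced scaffold of the degradation complex, had 80.0, 74.2 and 84.5 CPM in control medium and 120.3, 126 and 126 CPM with NETs. The groups were far apart, and the rise was 1.56-fold (log2 fold change 0.64 ± 0.0545, adjusted p = 6.24e-08). The ubiquitin ligase Syvn1 (HRD1) and its adaptor Sel1l rose 1.26-fold and 1.27-fold, the former from 89.5 ± 3.13 to 113 ± 1.96 CPM and the latter from 152 ± 0.709 to 193 ± 8.14 CPM. Exons of Syvn1 overlap those of Mrpl49 on the other strand, so its value is uncertain.

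The lectins Os9 and Erlec1, which pick out glycoproteins for disposal, rose 1.24-fold and 1.17-fold (adjusted p = 0.000948 and 0.0241). The call of Erlec1 was lost without control replicate 1 (log2 fold change 0.15), without NET replicate 2 (0.22) or 3 (0.21), and with scaling by library size alone (0.16). Of the EDEM genes, whose products trim mannose to mark a chain for degradation, Edem1 rose 1.32-fold, from 120.1 ± 3.89 to 158 ± 5.62 CPM. Edem2 and Edem3 did not pass (log2 fold changes 0.10 and 0.06), nor did the derlin genes Derl1 and Derl2 (-0.07 and -0.06), whose products form part of the exit channel. Exons of Derl2 overlap those of Mis12 on the other strand. Derl3, the third derlin, had 2, 0 and 0 counts in control libraries and 0, 0 and 6 with NETs, so no fold change is given.

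Of the Sec61 channel, the pore subunit gene Sec61a1 rose 1.28-fold, from 309 ± 8.45 to 395 ± 6.22 CPM. The small subunit gene Sec61b had 29.3, 28.1 and 29.8 CPM in control medium and 46.1, 40.5 and 43.4 CPM with NETs. All libraries with NETs were higher, and Sec61b rose 1.49-fold (log2 fold change 0.58 ± 0.0628, adjusted p = 1.3e-06). Sec61g, the gene of the other small subunit, was no member and did not pass (log2 fold change 0.07, adjusted p = 0.483).

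**Figure D3:**
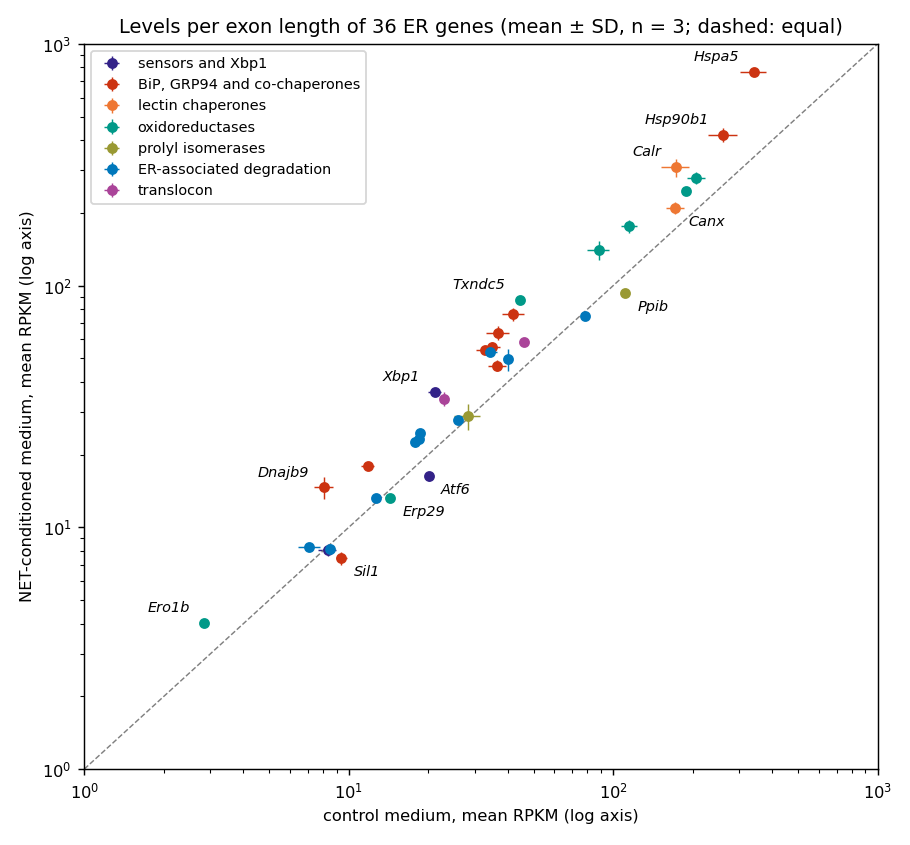
Mean RPKM (CPM per kilobase of exon) ± SD of the 36 tested members in control medium (x axis) and NET-conditioned medium (y axis), both on log axes, coloured by role, with a dashed line of equal levels. Hspa5 is the highest member in both media (341 and 766 RPKM), and the 3 members that fell, Ppib, Atf6 and Sil1, lie below the line.

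Levels per exon length ran over 2 orders of magnitude among the tested members, from 2.85 RPKM for Ero1b to 341 for Hspa5 in control medium. The order of genes given here rests on the deposited exon lengths. After Hspa5 came Hsp90b1 (261 ± 33.0), Pdia3 (206 ± 16.2), P4hb (188 ± 3.99), Calr (172 ± 21.1) and Canx (172 ± 13.6). Neighbours in the order from Pdia3 to Canx lay within the sum of their SDs of each other, while Hspa5, Hsp90b1 and Pdia3 lay farther apart. With NETs the order was Hspa5 (766 ± 29.4), Hsp90b1 (421 ± 28.8), Calr (309 ± 26.6), Pdia3 (279.5 ± 15.8), P4hb (246 ± 5.05) and Canx (209.8 ± 11.8). Calr thus passed Pdia3 and P4hb, although Calr and Pdia3 lay within the sum of their SDs of each other, and the other neighbours did not.

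The members of the ERSE set and the other members with a promoter window were set side by side. All 9 expressed members with an ERSE rose (Hspa5, Calr, Hsp90b1, Creld2, Pdia6, Dnajc3, Ero1b, Syvn1 and Canx), around a median log2 fold change of 0.67 and over a range of 0.29 to 1.17. Of the 19 tested members with a window but no ERSE, 13 rose, 1 fell and 5 did not pass, with a median of 0.39 and a range of -0.26 to 0.98. These counts stand beside 20.2% of all tested genes rising, and the difference between the sets was not tested. Strong rises were seen without an exact ERSE too, at Txndc5, Dnajb9, Xbp1 and Sdf2l1. The set without an ERSE held Txndc5, with the UPR element, and Herpud1 and Dnajb11, with ERSE-II, and each of these rose. Derl3 carried an ERSE and had next to no counts in either medium.

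Many members shared an order over the replicates, with 25 of the 36 highest in control replicate 3 among the control libraries and 21 highest in NET replicate 2 among the NET libraries. Of the 10 genes of the BiP and GRP94 group, 9 were highest in the former and 9 in the latter, and Sil1 was lowest in control replicate 3. The median deviation of this group's genes from the mean of their medium was 0.13 in control replicate 3 and 0.08 in NET replicate 2 on the log2 scale. NET replicate 2 was also the library with the fewest counts, and the part of depth in this was not tested. Both lectin chaperone genes and 5 of 7 oxidoreductase genes were also highest in each of these libraries, and of the ERAD genes 4 of 10 and 2 of 10 were. Without control replicate 3 the log2 fold change of Hspa5 was 1.26, and without NET replicate 2 it was 1.15. The count of members that rose was 26 and 25 in those fits. How many of all tested genes follow this order over the replicates was not counted, so it is not shown to be particular to the members.

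Other genes of ER protein handling, from 6 lists with no gene in common with the members, were counted in the same fit. Of 139 tested genes on these lists 47 rose and 28 fell, 33.8% and 20.1% beside 20.2% and 18.7% of all tested genes, and their median log2 fold change was 0.05. The list of the translocon and signal peptide processing had the highest median of the 6, with 12 of 23 higher, 11 not called and a median of 0.24. Tram2, a translocon-associated protein gene, rose 2.25-fold and the signal peptidase subunit gene Spcs2 1.39-fold (adjusted p = 1.02e-08 and 9.67e-07).

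Among N-glycosylation and lectin cycle genes 9 of 23 rose and 4 fell (median 0.14). Stt3a, a catalytic subunit of the oligosaccharyltransferase, rose 1.35-fold, from 224 ± 5.40 to 303 ± 12.0 CPM, and the glucosyltransferase gene Alg5 1.47-fold. The mannosidase gene Man1a fell 1.83-fold, from 84.8 ± 3.90 to 46.4 ± 1.31 CPM, and the glucosidase gene Mogs 1.24-fold. Of other ER chaperones and co-factors 11 of 23 rose and 4 fell (median 0.06), with the lectin gene Mlec 1.41-fold and the calcium-binding protein gene Rcn1 1.47-fold higher. The torsin genes Tor1a and Tor1b fell 1.19-fold and 1.13-fold.

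Of other oxidoreductases and prolyl isomerases 5 of 21 rose and 6 fell (23.8% and 28.6%, median -0.03). Pdia5 rose 2.07-fold, from 14.4 ± 0.867 to 29.8 ± 1.45 CPM, and Txndc11 1.39-fold. Qsox1, a sulphydryl oxidase gene, fell 1.64-fold, from 48.2 ± 4.74 to 29.4 ± 1.68 CPM. Of other ERAD genes 7 of 30 rose and 8 fell (23.3% and 26.7%, median -0.06). The shares that rose in both lists were near the 20.2% of all tested genes, and those that fell stand beside 18.7%. Selenos, which links the p97 ATPase to the ER membrane, rose 1.85-fold, and Vcp, the p97 gene, 1.19-fold. Ngly1, the glycanase that strips sugars from exported chains, fell 1.62-fold and Erlin1 1.28-fold.

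The list of other UPR signalling genes held 3 that rose and 6 that fell of 19 (median -0.05). These are 15.8% and 31.6%, beside 20.2% and 18.7% of all tested genes. Creb3l2, the gene of an ATF6-like membrane-bound factor, rose 3.88-fold, from 22.7 ± 1.27 to 88.0 ± 6.80 CPM (adjusted p = 5.14e-13). On the PERK side the kinase gene itself rose as given above, while Atf4 went from 635 ± 3.56 to 597 ± 4.29 CPM and did not pass (adjusted p = 0.135). Ddit3, the gene of the pro-apoptotic factor CHOP, fell 1.27-fold, from 70.0 ± 4.46 to 55.3 ± 3.91 CPM. Trib3 and Ppp1r15b, of which the latter restores translation, fell 1.58-fold and 1.27-fold.

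Chaperones of the cytosol and mitochondria were listed for comparison. Of 22 tested genes 6 rose, 1 fell and 15 did not pass, and their median log2 fold change was 0.07. The shares that rose and fell were 27.3% and 4.55%, beside 20.2% and 18.7% of all tested genes. Dnaja1 and Bag3, co-chaperones of the cytosolic Hsp70, rose 1.47-fold and 1.34-fold, and Hspa4l fell 1.13-fold. Their summed level was 11525 to 12804 CPM in control libraries and 12334 to 13331 CPM with NETs, which overlap.

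**Figure D4:**
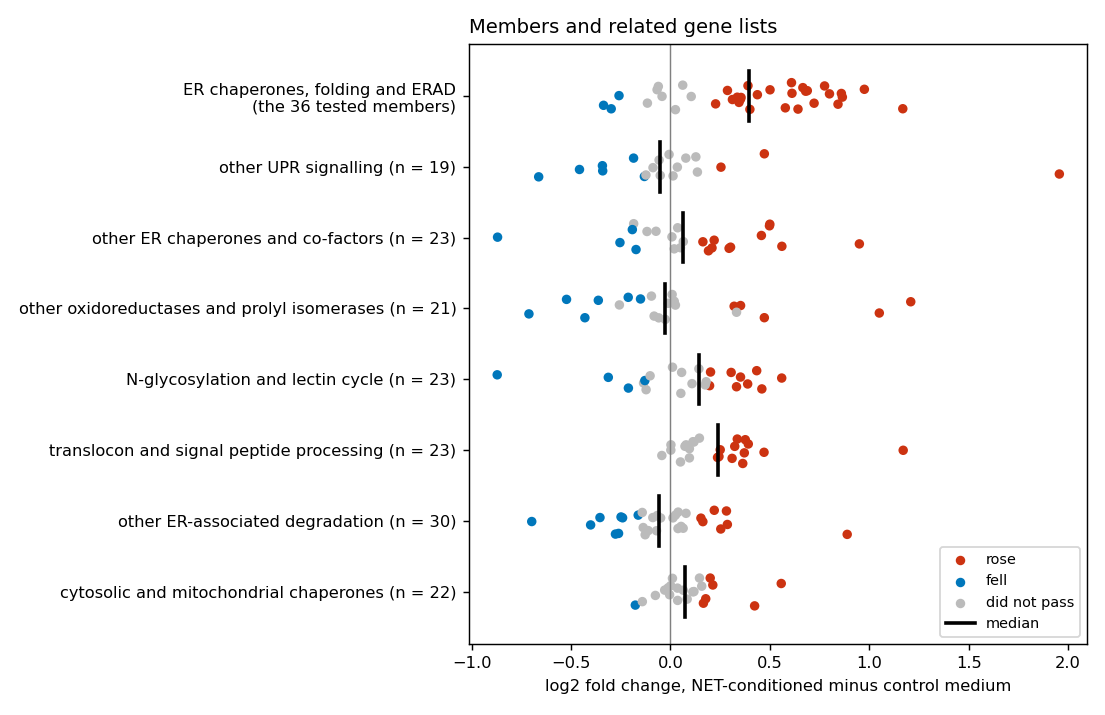
Log2 fold change (x axis) of the 36 tested members and of the genes of 7 comparison lists (rows), each point a gene, coloured by whether it rose, fell or did not pass, with the median as a black bar. The members' median is 0.39, and the lists' medians run from -0.06 (other ER-associated degradation) to 0.24 (translocon and signal peptide processing).

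Epithelial markers were present in every library, with 10 of 10 tested and the lowest, Elf3, at 31.3 CPM or more. Of the 10, 3 rose and 4 fell, among them Cldn4, a tight junction gene, 2.09-fold higher, from 378 ± 50.6 to 789 ± 12.3 CPM, and Elf3, an epithelial transcription factor gene, 2.37-fold lower, from 80.0 ± 1.85 to 33.8 ± 2.24 CPM. Their summed level was 5062 to 5412 CPM in control libraries and 5583 to 5801 CPM with NETs. Of 16 neutrophil markers 7 were at 0 in all libraries (Elane, Ctsg, Ngp, Camp, Retnlg, Csf3r and Mmp8). The summed level of the 16 was 179 to 262 CPM in control libraries and 27.7 to 32.4 CPM with NETs, nearly all of it Ltf, a gene that mammary epithelium also expresses. Without Ltf the other 15 added up to 1.76 to 2.28 CPM in control libraries and 3.06 to 3.41 CPM with NETs, mostly S100a8. The part of either marker list in the members' change was not tested. The deposited coordinates, counted from 1, place Hspa5 at chr2:34661982-34667559, Hsp90b1 at chr10:86526073-86541373, Txndc5 at chr13:38684055-38712800, Xbp1 at chr11:5470659-5475893 and Calr at chr8:85568479-85573563, spans that hold exons and introns. The submitters' notes name mm10, yet only 6 of the 37 members overlapped their GRCm38 spans, so these coordinates do not follow that build. Which build they follow was not determined, and they are not to be set against the promoter windows above.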

How the data were processed

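Messenger RNA of 3 control and 3 NET libraries was sequenced from a stranded mRNA kit, per the labels' protocols. The authors deposited counts per gene symbol, with exon lengths, made with STAR 2.7.10a and featureCounts of Subread 2.0.3 on mm10, per the submitters' processing notes. Nothing used here states strand setting, pair counting or annotation release. Of counts from 1 to 20, 74.8% to 78.4% were even, as would happen if both mates of a pair were counted.

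The deposited counts were fitted with edgeR 4.0.16 in R 4.3.3 (filterByExpr at a minimum count of 10, TMM, robust glmQLFit, glmQLFTest, medium as the only term), with Benjamini-Hochberg adjustment over 13956 genes at 0.05. SEs are the size of the fold change over the root of F. Exon overlaps were read from the deposited coordinates. Replicates of a group differed by 9.59 to 25.1 times counting noise (chi-square per degree of freedom), and each was used. These multiples would be too large if both mates of a pair were counted. The fit was tested on simulated data. Alternatives used limma 3.58.1 (voom), DESeq2 1.42.0, other scalings and filters, halved counts, a replicate block and leaving out each library.

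Members and gene lists were chosen with earlier results of these data known. Values per library are given for Xbp1, Ern1, Atf6 and members called with a log2 fold change of at least 0.5 in size, and for Canx, Sil1 and Ppib, added after their values were seen. From each list up to 2 called genes per direction with the smallest p at 5 CPM or more were named, and Atf4, Ddit3, Eif2ak3 and Ero1a whatever their values.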

Additional observations from a re-analysis of the deposited data

How the results depend on the processing

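Of 36 tested members, 29 kept direction and side of the threshold under all 15 alternatives. The others were Erlec1, Erp29, Fkbp2, Ern1, Derl1, Derl2 and Edem3. The counts that rose and fell were 25 to 26 and 3 to 3 with any library left out, and 26 and 3 with DESeq2, limma-voom, RLE, either other filter and halved counts. Scaled by library size alone, 25 rose and 6 fell, with a median log2 fold change of 0.33. That scaling lowered the median of all genes by 0.07 and gave 2106 genes higher and 3763 lower (35.9% higher) against 2825 and 2605 (52.0%). It called Erp29, Derl1 and Derl2 lower, lost Erlec1, and turned Fkbp2 (-0.043) and Edem3 (-0.0061). With 1 library left out, Fkbp2 ran from -0.046 to 0.12, turning without control replicate 2 and without replicate 2 or 3 of the NET group. Ern1 ran from -0.088 to 0.024, turning without control replicate 1. None of these passed. The cause was not tested. Same-numbered libraries did not deviate together (r = 0.12, -0.06 and 0.06 across genes), so the numbers are not taken to pair them, and with the replicate block 26 members rose and 4 fell, Erp29 being the added call (adjusted p = 0.0383; 0.0363 with upper-quartile factors). Not every sample correlated best with its own number. Related list genes were 47 higher and 28 lower, 41 and 42 by library size alone. Derl3 had too few counts to be tested.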

Other observations

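Genes outside the members whose promoter window held an exact ERSE numbered 27, of which 7 were expressed highly enough to be tested. Of these 2 rose, 3 fell and 2 did not pass, beside 20.2% of all tested genes rising and 18.7% falling. Calr4, a calreticulin paralog, had a log2 fold change of 0.97 (edgeR, adjusted p = 7.09e-06) and Hnrnpa3 0.25 (adjusted p = 0.0443). Adcy3 (-0.95), Pan2 (-0.47) and Acacb (-0.44) fell. Of 100 tested non-members with the UPR element TGACGTGG, 32 rose and 16 fell.

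Some genes of the related lists stood apart and were chosen after their values were seen. Nucb2, a calcium-binding ER and Golgi protein gene, rose 1.93-fold, from 70.1 ± 8.96 to 135 ± 12.6 CPM (edgeR, adjusted p = 6.98e-06), and Hspa13, an ER Hsp70-like gene, 1.41-fold. Creld1, the paralog of Creld2, fell 1.83-fold at a level near 1 CPM (adjusted p = 0.0377). The prolyl isomerase gene Fkbp7 rose 2.31-fold, from 1.32 ± 0.0816 to 3.04 ± 0.307 CPM. Qsox2 fell 1.44-fold, as its paralog Qsox1 did.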
